A study of Homo sapiens with 12 samples.

Results

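A4573 is a human Ewing sarcoma cell line, and A4573-R is its derivative that resists YK-4-279. The comparison of the 2 uses 6 of the 12 libraries of the study: A4573 parental replicates 1, 2 and 3 and A4573-R replicates 1, 2 and 3, chosen by their titles. The other 6 libraries, 3 of TC-71 parental and 3 of TC-71-R, come from another Ewing sarcoma line and its derivative, and serve here only to show where the change in A4573-R differs. Total RNA was sequenced from cells kept in RPMI with serum. Per the labels, A4573 parental was treated with DMSO, the solvent, while A4573-R received the compound itself, the stated dose being 650 uM (400 uM for TC-71-R). Such concentrations are far above what is usual for a small molecule in culture, so their unit is in doubt and is given as written. Resistance and exposure to the compound go together in A4573-R and cannot be told apart. Nothing in the labels tells whether the 3 libraries per group came from different cultures. The p-values therefore rest on the variation among libraries, some or all of which could be technical.

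Ewing sarcoma arises in bone or soft tissue and depends on EWS-FLI1, a fusion of the RNA-binding protein EWSR1 with the ETS transcription factor FLI1. The fusion protein activates some genes and represses others, many of the latter belonging to mesenchymal cells. YK-4-279 was designed to keep EWS-FLI1 from binding RNA helicase A, the product of DHX9. Levels are given as CPM, counts per 1000000 reads, on the scale the authors deposited, with replicates 1, 2 and 3 in that order. Changes are log2 fold changes of A4573-R minus A4573 parental on log2(CPM + 1), with their SE from limma (n = 3 per group), a scale that understates the change of genes with few CPM. Positions are those of GENCODE release 29 on GRCh38. A gene is called higher or lower where the Benjamini-Hochberg adjusted p over all tested genes is below 0.05.

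The 6 libraries hold 45.1 to 55.8 M reads (M, 1000000) on named genes. Reads on 5 entries with no name make up 31.1% to 42.0% of the A4573 parental libraries and 30.6% to 33.9% of the A4573-R libraries, and other scalings moved the median change of a gene list or chromosome by at most 0.04. Within A4573 parental the libraries correlated at r of 0.999 to 0.9992, within A4573-R at 0.9971 to 0.9975, and between the groups at 0.9584 to 0.9621, across the tested genes, which are not independent replicates. Of 16 Ewing sarcoma markers, 15 were tested, and their summed level was 1785 to 1840 CPM in A4573 parental and 1503 to 1553 CPM in A4573-R. Of the 15, 5 were higher and 9 lower, and CCND1 alone went from a mean of 633 to 349 CPM. PRKCB, a protein kinase C, was higher in A4573-R, at 182 CPM on average against 95.9 CPM in A4573 parental, and NR0B1, a target that the fusion activates, was lower, at 61 CPM against 86.6 CPM. The remaining marker, CD99, was at or below 0.0145 CPM in every library. All 18 protein-coding genes of the regions that chromosomes X and Y share were below 0.1 CPM, so the level of CD99 cannot be read from these files. Summed blood cell markers were at 0.349 to 0.446 CPM in A4573 parental and 0.969 to 1.44 CPM in A4573-R, with CD3D and MS4A1 at 0 and none of the 9 tested. Epithelial markers went from 0.771 to 1.05 CPM up to 1.69 to 1.89 CPM with KRT5 and KRT7 at 0, and endothelial ones from 2.54 to 3.31 CPM up to 4.11 to 4.98 CPM. Skeletal muscle markers went from a sum of 8.16 to 8.46 CPM to 12.4 to 14.6 CPM. Among them PAX7 was higher, MYH3 lower, and MYOG, MYF5 and DES at 0. Neuroblastoma markers went from 17.4 to 18.2 CPM to 32.8 to 36.7 CPM. In the latter list HAND2 and GATA3 were the 2 tested genes, and both were higher.

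Of 13061 genes tested, 9708 passed limma's test (74.3%), 5080 higher (38.9%) and 4628 lower (35.4%) in A4573-R. The counts of higher and lower genes in each list below are to be read beside these shares. At a change of 2-fold or more the counts were 818 (6.26%), 498 higher (3.81%) and 320 lower (2.45%), and at 4-fold or more 74 higher and 32 lower. The groups did not overlap for 10052 genes (77% of those tested). The median log2 fold change was 0.02, the median absolute change 0.27, and the 5th and 95th percentiles were −0.77 and 0.88. Replicates differed by less than that: the median SD on log2(CPM + 1) was 0.040 in A4573 parental and 0.068 in A4573-R. The count at 2-fold or more rises to 1384 with edgeR and 1380 with DESeq2, both on the reads recovered from the CPM, and falls to 504 where a mean of at least 5 CPM is asked for. Some genes passed the filter on low values only through the group where they are high. Without any 1 A4573-R library, 358 to 376 genes were higher and 315 to 334 lower by 2-fold or more. Without any 1 parental library these ranges were 494 to 512 and 252 to 273.

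**Figure D1:**
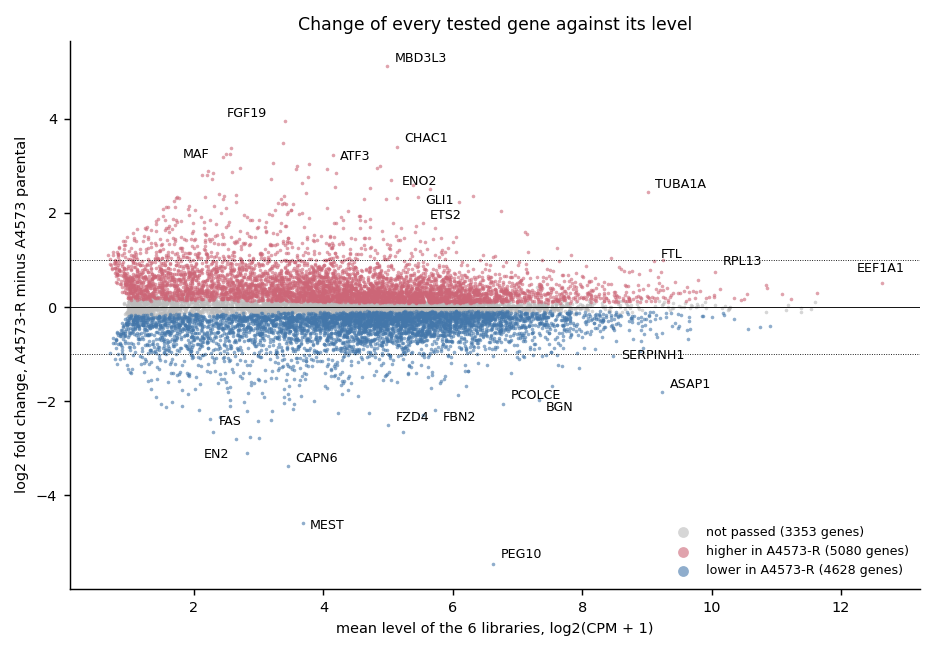
Log2 fold change of each of the 13061 tested genes (y axis, A4573-R minus A4573 parental on log2(CPM + 1)) against its mean level in the 6 libraries (x axis, log2(CPM + 1)); dotted lines mark 2-fold. Red and blue points are the 5080 higher and 4628 lower genes, which fill both sides at every level, and most lie inside the dotted lines.

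The parts of the drug's target complex were lower in A4573-R. FLI1 was at 36.2, 37 and 38.1 CPM in A4573 parental and 21.9, 22.5 and 20.7 CPM in A4573-R. EWSR1 was at 236, 245 and 245 CPM in A4573 parental and 201, 201 and 212 CPM in A4573-R. DHX9 was at 567, 562 and 563 CPM in A4573 parental and 445, 403 and 467 CPM in A4573-R. The libraries of the 2 groups did not overlap for any of these 3 genes, as for 77% of all tested genes. The log2 fold changes were −0.75 ± 0.04, −0.24 ± 0.04 and −0.37 ± 0.05. Reads counted per gene do not separate the fusion from the unrearranged EWSR1 and FLI1 genes. TAF15, an RNA-binding protein of the same family as EWSR1, fell as well (−0.26 ± 0.04).

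The strongest changes in both directions were picked for their size and for groups that do not overlap, so their separation is a description. The lowest log2 fold changes were those of PEG10 (−5.45), MEST (−4.59), CAPN6, a calpain-like protein (−3.37), EN2, an engrailed homeobox factor (−3.09), and VGLL3, a cofactor of TEAD factors (−2.80). FZD4, a WNT receptor, was at 53.3, 52.9 and 54.7 CPM in A4573 parental and 9.11, 9.07 and 7.75 CPM in A4573-R (log2 fold change −2.50 ± 0.06, limma adjusted p = 1.2e-10). Its neighbour PRSS23, a secreted protease whose annotated span overlaps that of FZD4, was at 15.6, 15.6 and 16.1 CPM in A4573 parental and 3.18, 2.75 and 3.39 CPM in A4573-R. FAS, the death receptor for FAS ligand, was at 11.7, 13.1 and 12.5 CPM in A4573 parental and 1.42, 1.84 and 1.32 CPM in A4573-R (−2.42 ± 0.08, adjusted p = 1.3e-09). In these 3 genes every A4573-R library was below every parental one. ADM, the vasodilator peptide adrenomedullin, fell from 7.22, 6.87 and 6.76 to 0.564, 0.487 and 0.569 CPM. EPAS1, the hypoxia-inducible factor HIF-2 alpha, fell from 8.12, 7.7 and 7.51 to 0.665, 0.7 and 0.853 CPM. GPNMB, a transmembrane glycoprotein of lysosomes and melanosomes, fell from 41.9, 43.6 and 41.5 to 7.94, 8.25 and 8.15 CPM, a change of −2.25 ± 0.04. TRIM5, a restriction factor of retroviruses, fell from 17.7, 18 and 18.2 to 2.89, 3.09 and 3.64 CPM. C7, a complement component, fell from 10.7, 10.6 and 10.6 to 1.46, 1.69 and 1.47 CPM. RGS7BP, which anchors regulators of G protein signalling, ZNF804A, a zinc finger gene, and SLC17A8, a vesicular glutamate transporter, fell with log2 fold changes of −2.40, −2.18 and −2.06.

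In absolute CPM the largest fall was that of ASAP1, a GTPase-activating protein of ARF proteins that acts on the cytoskeleton. It was at 906, 952 and 957 CPM in A4573 parental and 286, 253 and 267 CPM in A4573-R (−1.80 ± 0.05, adjusted p = 3.9e-10). Also abundant, SERPINH1, the collagen chaperone of the endoplasmic reticulum, fell from 490, 481 and 467 to 228, 233 and 242 CPM. CCND1, cyclin D1, fell from 628, 624 and 648 to 359, 327 and 360 CPM (−0.86 ± 0.05). Its neighbours on chromosome 11 FGF19 and ANO1 rose (3.96 ± 0.07 and 3.37 ± 0.06), though 8 of the 11 tested genes within 1000000 bases of FGF19 were lower and 2 higher. ANO1 passed the filter on low values only through the A4573-R libraries.

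Of the genes that rose most, RORB, an orphan nuclear receptor, was at 0.0797, 0.0815 and 0.0602 CPM in A4573 parental and 9.56, 9.43 and 7.53 CPM in A4573-R (log2 fold change 3.19). INSM1, a zinc finger factor of neuroendocrine cells, was at 0.0797, 0.116 and 0.0964 CPM in A4573 parental and 7.2, 7.08 and 7.21 CPM in A4573-R. LHX2, a LIM homeobox factor of the developing forebrain, was at 0.186, 0.14 and 0.277 CPM in A4573 parental and 7.75, 7.01 and 8 CPM in A4573-R. None of these 3 genes reached 0.3 CPM in a parental library, and each was above 7 CPM in every A4573-R library. They passed the filter on low values only through the A4573-R libraries, as did GABRD and CACNA1A. The separation of such genes is a description and no test. GABRD, a subunit of GABA-A receptors, rose from 0.531, 0.431 and 0.506 to 9.72, 10.9 and 11.1 CPM. CACNA1A, the pore of P/Q-type calcium channels, rose from 0.173, 0.175 and 0.0964 to 7.22, 7.16 and 6.84 CPM. KIF5C, a neuronal kinesin heavy chain, rose from 1.81, 1.73 and 1.75 to 21.1, 19.2 and 20.3 CPM (2.94 ± 0.05). PCDH19, a protocadherin, rose from 1.33, 1.44 and 1.4 to 16, 14.2 and 14.5 CPM. NGEF, a guanine nucleotide exchange factor downstream of ephrin receptors, rose from 3.65, 3.41 and 3.37 to 29.6, 32 and 31.9 CPM. IGSF21, an immunoglobulin superfamily member, rose from 3.26, 2.72 and 2.58 to 29.1, 27.2 and 28.8 CPM. The others among the 25 highest include SCGB3A2, a secretoglobin (3.06), PMEL, a melanosome protein (2.87), ZHX2, a zinc finger and homeobox repressor (2.76), CDYL2, a chromodomain protein (2.72), and TMPRSS15, the intestinal protease enteropeptidase (2.81).

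**Figure D2:**
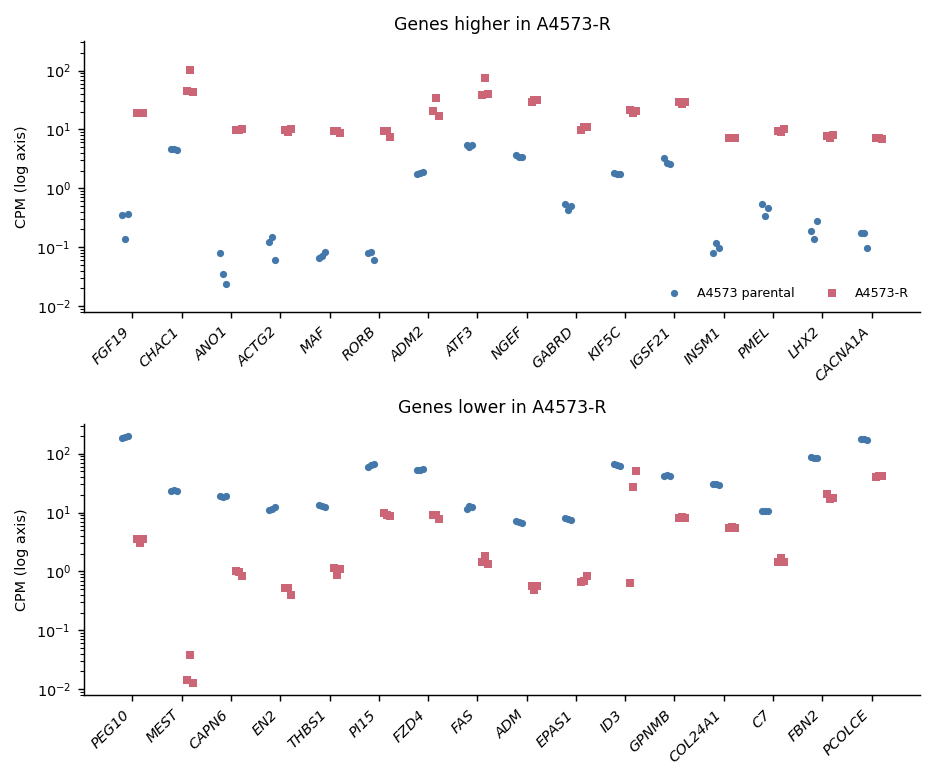
Level of 16 genes that rose and 16 that fell, in CPM on a log axis; each point is 1 library, circles for A4573 parental and squares for A4573-R. In most of these genes the libraries of a group lie close together and far from the other group. For CHAC1 and ADM2 the A4573-R libraries spread more widely, with replicate 2 highest, and ID3 has A4573-R libraries at 0.636, 27 and 51.1 CPM.

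Some genes changed from near 0 to a measurable level. The levels of 14 genes lay below 0.1 CPM in all 3 parental libraries and at 1 CPM or more in all 3 A4573-R libraries, and 2 genes went the other way. Of the 14, SLC18A2, the vesicular monoamine transporter, was at 0.0133, 0.0349 and 0.0241 CPM in A4573 parental and 2, 1.9 and 1.76 CPM in A4573-R. CHL1, a neural adhesion molecule of the L1 family, went from 0.0531, 0.0233 and 0.012 to 1.37, 1.25 and 1.34 CPM. SYK, a tyrosine kinase of immune receptors, rose from 0.0133, 0.0233 and 0.012 to 1.24, 1.2 and 1.09 CPM. SHISA9, an auxiliary subunit of AMPA receptors, went from 0.0133, 0.0582 and 0.0723 to 2.2, 2.46 and 2.2 CPM. TMTC1 rose from 0.093, 0 and 0.0361 to 2.16, 1.9 and 2.34 CPM. RORB, MAF, ANO1, TMPRSS15, TCF24, ANKFN1, MBD3L2B, LINC01563 and LINC01783 are the rest, of which MBD3L2B has near-identical copies, so that its level is uncertain. The 2 genes that were lost are MEST, an imprinted gene, and LRRC32, the surface receptor of latent TGF-beta, which went from 1.57, 1.35 and 1.4 to 0.0579, 0.05 and 0.0775 CPM.

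Changes were not spread evenly over the genome. Protein-coding genes were placed in chromosome order, and the median log2 fold change of 25 neighbouring genes was taken in steps of 5 genes. Windows with a median of at least 0.4 in size and the same direction were joined where they overlapped or adjoined. Weaker windows between them were bridged, so the median of a whole region can be below 0.4 in size. This gave 25 regions, 12 higher and 13 lower, with 1635 of the 11933 placed genes. The regions were picked from the same values they are described by, so their medians carry no test, and DNA copy number was not measured. The widest lower region lies on chromosome 10 from 35.0 to 94.0 Mb (Mb, 1000000 bases): of its 170 genes 145 were lower and 12 higher, with a median of −0.54, against 0.05 on the rest of the chromosome. The A4573-R libraries had medians of −0.49, −0.59 and −0.57 there, and the median change of the same genes in TC-71-R was 0.00. Inside it lies the lowest window, from base 49734643 to 62268707, with a median of −0.86 and 25 of 25 genes lower.

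Other lower regions are the short arm of chromosome 11 from 0.8 to 45.9 Mb, with 134 of 160 genes lower and a median of −0.51, and the first 43.4 Mb of chromosome 3, with 122 of 145 lower and a median of −0.45. On chromosome 5 the stretches from base 21750673 to 52959210 (44 of 55 lower) and from 54.5 to 69.4 Mb (37 of 45 lower) both had a median of −0.50. The end of chromosome X, from 123.2 to 154.4 Mb, had 74 of 90 genes lower and a median of −0.46. In these regions the TC-71-R medians were between −0.14 and 0.03. Chromosome 15 from 68.2 to 81.0 Mb is different, since its median was −0.45 in A4573-R and −0.41 in TC-71-R.

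The widest higher regions lie on chromosome 6, the chromosome with the highest median (0.29, with 410 of 624 tested genes higher). From 41.1 to 83.2 Mb 94 of 115 genes were higher, with a median of 0.45, and from 112.1 to 169.7 Mb 118 of 155, with a median of 0.49. In the latter the A4573-R libraries were at 0.54, 0.51 and 0.47, and TC-71-R at −0.08. Chromosome 16 from 75.0 to 87.8 Mb (36 of 50 higher, median 0.43) and chromosome 4 from 0.6 to 13.5 Mb (54 of 65 higher, median 0.42) also stood out. Chromosome 11 had the lowest median of any chromosome, −0.21, with 428 of 728 genes lower.

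**Figure D3:**
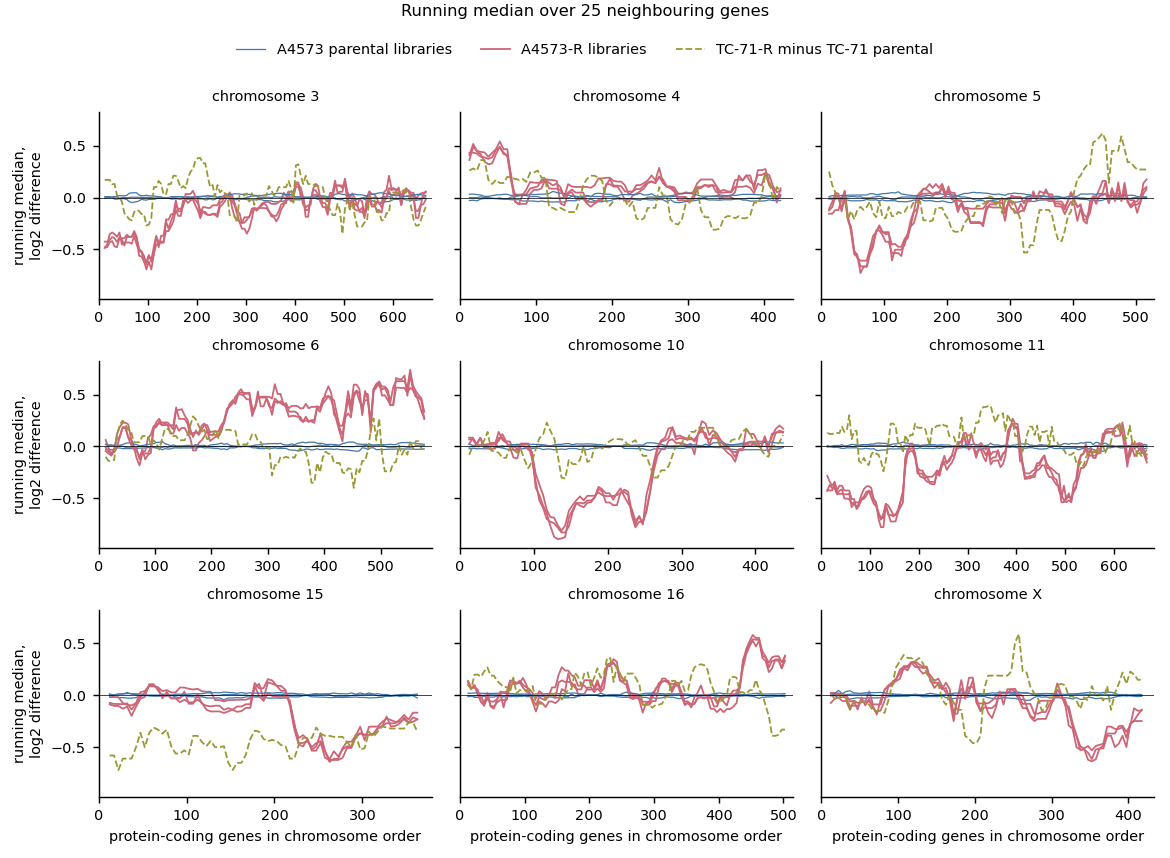
Running median of the log2 difference from the parental mean over 25 neighbouring protein-coding genes, for 9 chromosomes, with genes in chromosome order on the x axis; blue lines are the 3 A4573 parental libraries, red lines the 3 A4573-R libraries and the dashed line the TC-71-R change. The 3 red lines run together, down to −0.86 on chromosome 10 and up to 0.68 on chromosome 6, while the blue lines stay near 0.

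Of the 301 protein-coding genes lower by 2-fold or more, 84 lay in a lower region and 3 in a higher one, and of the 474 higher by 2-fold or more, 75 lay in a higher region and 16 in a lower one. Of all placed lower protein-coding genes 796 of 4292 lay in a lower region and 63 in a higher one, and of all placed higher genes 522 of 4703 in a higher region and 93 in a lower one. Since the regions were drawn from these same changes, the direction of these splits was fixed by their choice. FAS shows how a single gene sits in such a region. All 9 tested genes within 1000000 bases of it were lower, with a median of −0.96. ACTA2, smooth muscle actin, whose span overlaps that of FAS at its start, was at 14.4, 14.4 and 13.5 CPM in A4573 parental and 2.11, 2.19 and 2.47 CPM in A4573-R. Next to it, STAMBPL1, a deubiquitinase, fell from 8.54, 8.49 and 8.73 to 2.46, 2.54 and 2.39 CPM. PANK1, a pantothenate kinase of coenzyme A synthesis, fell from 13.5, 13 and 13.3 to 4.74, 3.96 and 3.49 CPM. The interferon-induced genes IFIT1 (−0.70), IFIT3 (−0.86) and IFIT5 (−0.96) and the mitotic kinesin KIF20B (−0.98) are also among these neighbours. In the same way 6 of 6 tested neighbours of FZD4, 7 of 7 of C7, 11 of 12 of ADM and 13 of 14 of TRIM5 were lower. Around FBN2, PCOLCE and GPNMB, by contrast, neighbours went both ways, with medians of −0.24, −0.09 and 0.06.

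Genes for the proteins of the cytosolic ribosome rose more often than they fell. Of 81 tested, 55 were higher and 12 lower, with a median of 0.19 against 0.02 over all tested genes. Of the 12 lower genes 10 lie in lower regions: RPL14, RPL15, RPL32 and RPSA on chromosome 3, RPL37 on 5, RPS24 on 10, RPL27A, RPLP2 and RPS13 on 11 and RPLP1 on 15. The share of all placed lower genes is 796 of 4292. RPL14 for example fell from 408, 420 and 406 to 284, 306 and 312 CPM. RPS13 fell from 370, 375 and 372 to 255, 277 and 276 CPM. Of the 55 higher genes 0 lie in a lower region, where 93 of all 4703 placed higher genes do, and 2 lie in higher ones, RPS12 and RPS19. RPS12 rose from 563, 570 and 567 to 748, 868 and 841 CPM. RPL13, on chromosome 16, rose from 791, 792 and 806 to 1301, 1377 and 1325 CPM. EEF1A1, the elongation factor that brings tRNA to the ribosome, rose from 5173, 5275 and 5152 to 7940, 7035 and 7489 CPM. RPS18 and RPL7A varied between parental libraries, RPS18 at 297, 287 and 611 CPM, and ribosomal proteins have many processed copies, so single members are uncertain. Their calls, and those of RPS24 and RPL37, were lost under some settings. RPL32 was chosen after its value was seen.

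Genes that build ribosomes went the other way. Of 35 genes of ribosome biogenesis and MYC, 26 were lower and 3 higher, with a median of −0.36. HEATR1, a component of the small subunit processome, fell from 252, 248 and 247 to 153, 138 and 147 CPM. NOP2, an rRNA methyltransferase, fell from 236, 237 and 238 to 153, 137 and 170 CPM. NCL, nucleolin, fell from 1709, 1773 and 1788 to 1254, 1248 and 1341 CPM. The 3 that rose are MYCN, from 0.904, 1 and 0.928 to 5, 4.72 and 5.09 CPM, and the MYC antagonists MXD3 (1.10) and MXI1 (0.63). Of 44 RNA helicases 32 were lower and 1 higher (median −0.24), with DDX17 at −0.63 ± 0.04 and DHX33 at −0.66 ± 0.05; DDX60, a helicase linked to interferon, rose (0.36). Of 42 splicing factors and hnRNPs 29 were lower and 3 higher (median −0.25), among them HNRNPF, which fell from 259, 269 and 272 to 146, 135 and 161 CPM, and SRSF2, from 169, 179 and 183 to 127, 105 and 129 CPM. Mitochondrial ribosomal proteins had 27 of 59 lower and 11 higher, with a median of −0.09. MRPS25 (−0.86) and MRPS16 (−0.71) fell most and lie in the lower regions of chromosomes 3 and 10. Of the 27 lower mitochondrial ribosomal genes 4 lie in lower regions, against 796 of all 4292 placed lower genes.

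The next group of genes belongs to the integrated stress response. In that pathway kinases that sense lack of amino acids, misfolded proteins in the endoplasmic reticulum or other stress slow translation and raise the transcription factor ATF4. ATF4 pairs with CEBP proteins on a composite site and switches on genes for amino acid supply and, under lasting stress, for cell death. That site was looked for as TGATGNAA on both strands in windows from 250 bases before to 50 after each RefSeq start site (GRCh38.p14). It was found in 3.62% of the 35116 windows of all genes, in 1.95% of those of tested genes and in 2.96% of those of genes higher by 2-fold or more. The shares of windows were 15.2% in the stress list, 28.2% in the amino acid list and 33.3% in the cytosolic tRNA synthetases. Counted by gene, 1217 of 27305 genes with a window held it, 264 of 9813 tested genes, 5 of 21 genes of the stress list, 9 of 21 of the amino acid list and 7 of 16 synthetases. The stress list was drawn up from ATF4 targets and stress regulators, so its share is no independent result. List genes were looked up under older and newer symbols, but tested genes only under the deposited symbol, so these shares are not strictly alike. The 30 bases around the match are shown for 5 genes that rose and for BCAT1, which fell, in the gene's own direction with the match in capitals.
CHAC1 (chr15:40953251-40953280, plus strand): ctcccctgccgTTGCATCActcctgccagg
ATF3 (chr1:212565205-212565234, plus strand): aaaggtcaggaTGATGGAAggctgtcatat
CEBPG (chr19:33374060-33374089, plus strand): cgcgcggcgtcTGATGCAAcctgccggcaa
ASNS (chr7:97872458-97872487, minus strand): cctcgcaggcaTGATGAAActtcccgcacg
GOT1 (chr10:99430804-99430833, minus strand): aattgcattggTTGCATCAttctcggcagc
BCAT1 (chr12:24949131-24949160, minus strand): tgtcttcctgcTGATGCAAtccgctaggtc
In CHAC1 and GOT1 the match reads on the opposite strand. A match of these letters is no evidence of binding, and BCAT1 holds the same 8 letters as CEBPG.

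Of 20 tested ATF4 targets and stress regulators, 17 were higher and 1 lower, and 10 were higher by 2-fold or more, with a median of 0.97. The pro-apoptotic factor DDIT3, also called CHOP, was at 27.1, 27.1 and 28.2 CPM in A4573 parental and 60.2, 129 and 59.9 CPM in A4573-R. CHAC1, which breaks down glutathione, was at 4.73, 4.61 and 4.55 CPM in A4573 parental and 44.3, 103 and 43.5 CPM in A4573-R. ADM2, an adrenomedullin-related peptide, was at 1.78, 1.85 and 1.92 CPM in A4573 parental and 20.4, 33.9 and 16.7 CPM in A4573-R. Replicate 2 was the highest A4573-R library in each of these. All A4573-R libraries were above the parental ones, and the groups did not overlap in 77% of all tested genes. ATF4 itself rose from 286, 300 and 298 to 471, 565 and 467 CPM (0.76 ± 0.07, adjusted p = 1.9e-06), and its partner CEBPG from 36.8, 37 and 39.2 to 56.7, 72.4 and 46.1 CPM. ATF5 rose from 14.4, 15.6 and 15.2 to 33.8, 56.5 and 24.8 CPM. PPP1R15A, which restores translation, rose from 11, 10.5 and 10.7 to 18.7, 29.3 and 17.8 CPM. VLDLR, the VLDL receptor, rose from 1.34, 1.56 and 1.31 to 5.45, 8.05 and 3.3 CPM. The summed level of the list was 670 to 694 CPM in A4573 parental and 1194, 1694 and 1113 CPM in A4573-R replicates 1, 2 and 3.

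Genes of amino acid synthesis and transport rose as well: 17 of 29 were higher, 2 lower, and the median was 0.37. Without A4573-R replicate 2, 14 of 28 were higher and the median was 0.23, and without replicate 3 22 were higher. SLC7A3, a transporter of cationic amino acids, rose from 6.79, 7.08 and 7.04 to 25.1, 32.6 and 22.6 CPM. PCK2, mitochondrial PEP carboxykinase, rose from 2.25, 2.01 and 2.24 to 15, 27.4 and 8.24 CPM. ASNS, asparagine synthetase, rose from 0.917, 0.815 and 0.783 to 2.59, 5.15 and 1.84 CPM. CTH, which makes cysteine, was at 6.35, 6.51 and 6.69 CPM in A4573 parental and 12.8, 24.5 and 7.86 CPM in A4573-R. MTHFD2, a mitochondrial enzyme of folate metabolism, was at 174, 178 and 186 CPM in A4573 parental and 262, 341 and 221 CPM in A4573-R. In all 5 genes replicate 2 was highest and replicate 3 lowest in A4573-R. BCAT1, the cytosolic branched-chain aminotransferase, fell from 236, 245 and 255 to 189, 191 and 147 CPM. Cytosolic tRNA synthetases had 7 of 20 higher and 8 lower, with a median of 0.08: GARS (0.56), YARS (0.56) and AARS (0.48) rose, and WARS (−0.30) and IARS (−0.21) fell. Among the 50 genes that varied most between the A4573-R libraries with a mean of at least 5 CPM, replicate 2 was highest in 41 and replicate 3 lowest in 36. What sets the A4573-R replicates apart is not given in the labels. Without replicate 2 the stress list counted 17 higher and 1 lower, with a median of 0.81.

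**Figure D4:**
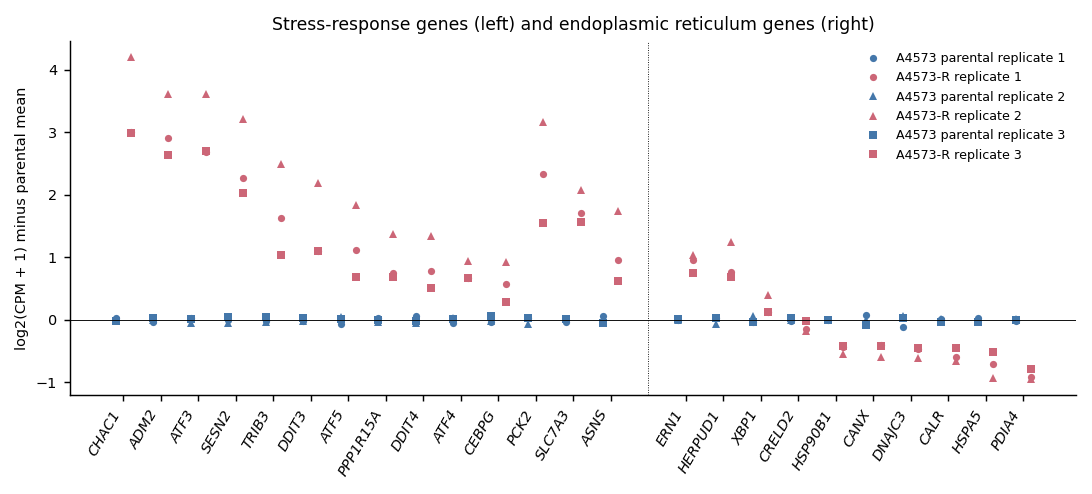
Level of 14 stress-response and amino acid genes and 10 genes of the endoplasmic reticulum in each library, as log2(CPM + 1) minus the parental mean (y axis); circles, triangles and squares are replicates 1, 2 and 3, blue for A4573 parental and red for A4573-R. Red triangles lie highest for the stress genes, up to 129 CPM against 27.1 to 28.2 CPM in the parental libraries for DDIT3, and on the right the A4573-R libraries lie above 0 for ERN1 and HERPUD1 and below 0 for the chaperones HSPA5 and PDIA4.

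Chaperones of the endoplasmic reticulum, which fold secreted proteins and are raised by the unfolded protein response, were mostly lower: 16 of 24 were lower and 5 higher, with a median of −0.22. HSPA5, the main chaperone of that compartment, was at 470, 455 and 449 CPM in A4573 parental and 280, 239 and 319 CPM in A4573-R (−0.72 ± 0.08, adjusted p = 1.5e-05). PDIA4, a disulfide isomerase, was at 375, 382 and 377 CPM in A4573 parental and 201, 196 and 218 CPM in A4573-R. CALR, calreticulin, was at 599, 599 and 582 CPM in A4573 parental and 394, 376 and 434 CPM in A4573-R. In each of the 3 the groups did not overlap, as in 77% of all tested genes, and A4573-R replicate 2 was lowest. The summed level of the list went from 4097 to 4159 CPM down to 2924 to 3224 CPM. ERN1, the sensor IRE1 alpha, rose instead from 6.64, 6.63 and 6.75 to 13.9, 14.8 and 11.9 CPM, as did HERPUD1, which takes part in degradation of misfolded proteins, from 13.6, 12.8 and 13.7 to 23.4, 33.2 and 22.2 CPM. CRELD2 was at 22.5, 22.8 and 23.4 CPM in A4573 parental and 20.6, 20.1 and 22.6 CPM in A4573-R and did not pass (adjusted p = 0.055), but was lower by TMM scaling (−0.15). Of 15 heat shock proteins and related chaperone genes 8 were lower and 2 higher, with HSPB1 falling from 248, 253 and 251 to 159, 159 and 174 CPM.

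Matrix genes are known as targets that EWS-FLI1 represses. Of 25 tested fibroblast and matrix genes 15 were lower and 8 higher, 10 of them lower by 2-fold or more and 1 higher, and the summed level went from 2166 to 2205 CPM to 1488 to 1604 CPM. BGN, the proteoglycan biglycan, was at 255, 257 and 253 CPM in A4573 parental and 62.3, 65.5 and 65.5 CPM in A4573-R (−1.97 ± 0.04, adjusted p = 3e-11). FBN2, fibrillin 2 of elastic microfibrils, was at 88.4, 84.7 and 85.1 CPM in A4573 parental and 20.4, 16.9 and 17.4 CPM in A4573-R. PCOLCE, which speeds the trimming of procollagen, was at 176, 178 and 174 CPM in A4573 parental and 40.4, 42.3 and 41.7 CPM in A4573-R. No A4573-R library reached a parental one in these 3 genes, and the groups did not overlap in 77% of all tested genes. FN1, fibronectin, fell from 733, 711 and 700 to 535, 471 and 460 CPM. Against this direction VCAN, versican, rose from 7.85, 7.77 and 8.1 to 17.8, 15.6 and 14.7 CPM. MMP14, a membrane-bound matrix protease, rose from 30.1, 30.3 and 30.8 to 48.6, 51.1 and 48.5 CPM. Collagens split, 12 of 24 lower and 10 higher: COL16A1 (−1.68) and COL11A1 (−1.47) fell, and COL12A1 (2.06), COL9A3 (1.43) and COL14A1 (1.22) rose. COL24A1, a fibrillar collagen outside that list, fell (−2.24). COL11A1 is fibrillar too, while COL12A1 and COL14A1 sit on the surface of fibrils. In a bulk sample fewer cells of a kind and less RNA per cell cannot be told apart.

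Integrins are the receptors that hold cells to the matrix. Of 13 integrins 8 were lower and 2 higher, with a median of −0.36. ITGB5, a beta subunit that binds vitronectin, was at 28.8, 28.6 and 28.5 CPM in A4573 parental and 9.08, 8.35 and 8.71 CPM in A4573-R. ITGA1, a collagen receptor subunit, was at 18.8, 18.4 and 17.5 CPM in A4573 parental and 8.09, 8.35 and 7.26 CPM in A4573-R. ITGA9, which pairs with ITGB1, was at 4.78, 3.99 and 4.12 CPM in A4573 parental and 1.46, 1.22 and 1.8 CPM in A4573-R. Their groups did not overlap, as in 77% of all tested genes, and ITGA1 and ITGA9 lie in the lower regions of chromosomes 5 and 3. ITGA2 (0.41) and ITGA5 (0.28) rose, and ITGB1, the shared beta subunit, was at 172 CPM and 175 CPM on average and did not pass. Of 23 genes of the YAP and TEAD pathway, which reads cell contact and tension, 14 were lower and 6 higher. The secreted target CTGF fell from 23.3, 22.5 and 21 to 4.63, 5.25 and 4.55 CPM. CYR61, another, fell from 16, 16 and 15.3 to 5.66, 5.78 and 5.54 CPM. AMOTL2, a feedback inhibitor of YAP, fell from 62.3, 61.1 and 61 to 30.9, 29.8 and 30.3 CPM. By 2-fold or more 5 of the list fell, and 3 without any 1 of the parental libraries, when 21 were tested.

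Contractile and actin genes had 11 of 21 lower and 8 higher. CALD1, caldesmon, fell from 69.7, 74.2 and 75.6 to 26.7, 28.5 and 27.1 CPM. TPM1, tropomyosin 1, fell from 23.4, 23.9 and 24 to 8.88, 8.32 and 9.91 CPM, and VCL, vinculin of focal adhesions, fell by a log2 change of 0.73. SMTN, smoothelin, rose from 10.2 to 24.1 CPM on average (1.16 ± 0.05). Skeletal muscle markers, given above, were higher by their sum through PAX7, at a mean of 5.02 CPM in A4573 parental and 10.9 CPM in A4573-R. MYH3, the other tested marker, fell from a mean of 3.25 to 2.23 CPM. The part of these markers in the contractile values was not tested. Cadherins and protocadherins split, 11 of 26 higher and 10 lower, with CDH6 falling (−1.65).

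Of 36 ion channel genes 23 were higher and 10 lower, with a median of 0.38, and 8 rose by 2-fold or more. Some of these passed the filter on low values only through the A4573-R libraries: with any 1 of those left out, 30 were tested, of which 16 to 17 were higher and 10 to 11 lower, 4 rose by 2-fold or more, and the median was 0.20 to 0.24. SCN3A, a voltage-gated sodium channel, was at 0.957, 0.943 and 1.02 CPM in A4573 parental and 4.6, 4.29 and 4.12 CPM in A4573-R, and KCNMB4, a regulatory subunit of BK potassium channels, rose with a log2 fold change of 1.41. KCNK1, a potassium leak channel, rose by 1.45, while KCNE4, a potassium channel subunit, fell (−1.58). Synaptic and neuronal genes had 14 of 24 higher and 5 lower, with a median of 0.30: SYT1, the calcium sensor of vesicle release, rose from 63.2, 62.3 and 65.5 to 142, 140 and 127 CPM, and NEFL, the light neurofilament, fell (−0.93). Of 9 neuropeptide and granule genes 6 were higher, and PCSK1N, an inhibitor of prohormone convertase, rose from 10.5, 9.9 and 10.3 to 40.2, 40.1 and 40.5 CPM. GAL, galanin, fell from 47.8, 49 and 50.8 to 23.6, 25.2 and 26.4 CPM, and NTS, neurotensin, and GRP, gastrin-releasing peptide, fell as well (−1.40 and −0.88). Neuroblastoma markers were higher too, HAND2 from a mean of 14.9 to 27.8 CPM and GATA3 from 2.67 to 6.17 CPM, and their part in these values was not tested.

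Microtubule genes, which shape axons and the spindle, mostly rose. Of 28 stathmins and microtubule-associated proteins 18 were higher and 3 lower, with a median of 0.27. CRMP1, a neuronal phosphoprotein of growth cones, was at 40.8, 40.1 and 41.8 CPM in A4573 parental and 169, 167 and 179 CPM in A4573-R (2.04 ± 0.04). MAPT, tau, rose from 9.71, 9.73 and 9.47 to 17.2, 16.1 and 17.7 CPM, and MAP1B by a log2 change of 0.74. Of 15 tubulins 11 were higher and 2 lower, among them TUBB4A, a neuronal beta-tubulin (0.92), and TUBB6 (0.62), whose reads may be shared with close copies. Kinesins split, 14 of 34 higher and 11 lower: KIF1A, a carrier of synaptic vesicles, rose from 35, 34.5 and 35.6 to 87, 86 and 81.2 CPM, while the mitotic kinesins KIF20B (−0.98), KIF23 (−0.83) and KIF11 (−0.61) fell. Of the 11 lower kinesins 6 lie in lower regions, against 796 of all 4292 placed lower genes.

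Axon guidance genes moved both ways, 24 of 46 higher and 19 lower. Some passed the filter on low values only through the parental libraries. With any 1 of those left out, 40 to 41 were tested, of which 23 were higher and 12 to 14 lower. NTN1, netrin 1, was at 35.5, 34.5 and 36.8 CPM in A4573 parental and 8.75, 8.88 and 9.25 CPM in A4573-R (−1.88 ± 0.04, adjusted p = 1.4e-10). Its receptors UNC5B, at 75.2, 75.3 and 78.5 CPM in A4573 parental and 23.2, 23.2 and 21.7 CPM in A4573-R, and DCC (−1.13) and UNC5C (−0.98) fell with it. UNC5A, a receptor of the same family, rose (2.06 ± 0.05), as did SEMA6B (1.66) and the ephrin receptor EPHA3 (1.15). The groups did not overlap for NTN1 or UNC5B, as for 77% of all tested genes.

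Transcription factors of development also went both ways, 28 of 59 higher and 22 lower, against 38.9% and 35.4% of all tested genes. POU3F2, a neural POU factor, was at 3.22, 3.32 and 3.6 CPM in A4573 parental and 16.9, 15.1 and 16.9 CPM in A4573-R. DLX1, a homeobox gene on chromosome 2, was at 14.7, 15.2 and 15.4 CPM in A4573 parental and 3.95, 3.69 and 3.76 CPM in A4573-R. Its neighbour DLX2 was at 23.8, 23.2 and 24.2 CPM in A4573 parental and 6.91, 7.46 and 5.87 CPM in A4573-R. SOX9, a factor of cartilage and neural crest, was at 45, 44 and 47.1 CPM in A4573 parental and 20.7, 19.5 and 20.9 CPM in A4573-R. The POU3F2 libraries of A4573-R were all above the parental ones and those of the other 3 genes all below. Such separation held for 77% of all tested genes. SOX2 rose (0.72) and FOXC1 fell (−1.18). HOX genes had 15 of 25 higher and 3 lower, with a median of 0.37. HOXB8 rose from 0.957, 0.721 and 0.771 to 6.47, 7.83 and 6.9 CPM, and in the same cluster HOXB5 (1.25) and HOXB2 (0.96) rose and HOXB3 (−0.40) fell. HOXD13, a HOX gene of Ewing sarcoma, fell from 178, 180 and 186 to 149, 142 and 148 CPM. Of the ETS factors, ETS2 rose from 19.3, 20 and 20 to 70.6, 69 and 72.7 CPM and ETS1, next to FLI1 on chromosome 11, fell from 30.3, 28.9 and 29.8 to 15.7, 14.7 and 15.5 CPM. Among 41 chromatin regulators, 21 higher and 11 lower, SMARCA2, an ATPase of the BAF complex, fell from 25.8, 25.5 and 25.2 to 8.84, 8.92 and 8.58 CPM.

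In the WNT pathway 14 of 35 genes were higher and 15 lower, against 38.9% and 35.4% of all tested genes. With any 1 A4573-R library left out, 32 were tested, of which 10 to 12 were higher and 15 lower. Of the ligands and secreted inhibitors, WNT9A rose from 1.05, 0.884 and 0.988 to 4.85, 4.57 and 5.13 CPM. SFRP1, a secreted inhibitor, was at 9.61, 9.12 and 10 CPM in A4573 parental and 50.4, 48.9 and 53.2 CPM in A4573-R. DKK1, another, fell from 1.91, 1.89 and 1.96 to 0.13, 0.15 and 0.0905 CPM. Of the receptors, LGR4, which binds R-spondins, fell from 44.3, 43.9 and 45.6 to 18.1, 14.3 and 14.9 CPM, and LGR5 fell (−1.09). The target LEF1 rose (0.95) and NKD2, an antagonist, rose (1.09).

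TGF-beta and BMP genes had 22 of 42 lower and 10 higher, with a median of −0.16. The ligand BMP2 rose from 5.42, 5.12 and 5.64 to 14.6, 14.7 and 13.7 CPM, TGFB1 rose (1.18) and BMP7 fell (−1.19). SMAD6, an inhibitor of BMP signalling, fell from 45.3, 44.6 and 45.7 to 16, 16 and 17 CPM, and the BMP target ID2 fell from 83.6, 84.9 and 84.9 to 68.2, 67.7 and 67.2 CPM. ID3, another BMP target, was at 68.1, 63.7 and 61.8 CPM in A4573 parental and 0.636, 27 and 51.1 CPM in A4573-R, so that its A4573-R libraries range from near 0 to close to the parental level (adjusted p = 0.049). With A4573-R replicate 1 left out the ID3 change shrank to −0.78, and by edgeR the call was lost (−1.30). HAND2 and MSX1, factors that BMPs regulate in limb and neural crest, were higher, MSX1 by 1.08.

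Notch genes had 12 of 21 higher and 3 lower, 6 of the 12 by 2-fold or more. JAG2, a ligand, rose from 1.12, 1.08 and 1.12 to 6.19, 5.15 and 6.1 CPM, and DLL3, an inhibitory ligand, by 1.06; among targets NRARP (1.13) and HES7 (1.11) rose and HES1 fell from 29.7, 30.9 and 31.9 to 18.4, 18.2 and 17 CPM. In the Hedgehog pathway, 7 of 15 genes were higher and 6 lower. The targets GLI1 (2.34), HHIP (0.94) and PTCH1 (0.43) rose, while GLI2, a transcription factor of the pathway, fell from 45.3, 44.7 and 46.3 to 19.1, 18.6 and 19.6 CPM and SMO, the transducer, fell (−0.61). FGF and ERK feedback genes had 13 of 24 higher and 6 lower, SPRY2 rising (0.72) and ETV5 falling (−0.82). Some of these passed the filter on low values only through the A4573-R libraries. With any 1 of those left out, 19 to 20 were tested, 9 of them higher and 5 to 6 lower, with a median of 0.07 to 0.16 (0.25 in full).

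Growth factor receptors and their ligands went both ways. ALK, a receptor tyrosine kinase of neuroblastoma, was at 2.58, 2.73 and 2.93 CPM in A4573 parental and 16.6, 15.2 and 17.2 CPM in A4573-R (2.21 ± 0.06, adjusted p = 3.6e-10). ERBB4 rose from 4.25, 4.35 and 4.07 to 11.3, 10.3 and 9.78 CPM, and its ligand NRG1 fell from 23.7, 24.3 and 24.6 to 9.65, 9.38 and 9.61 CPM. PDGFRA rose (1.16) while PDGFRB (−1.22) and the ligand PDGFD, which activates PDGFRB, fell. The levels of PDGFD went from 15.3, 15 and 15.5 to 5.73, 5.97 and 5.04 CPM. IGFBP7, which binds IGFs weakly, fell from 4.81, 5.2 and 4.96 to 1.2, 1.1 and 1.15 CPM, and IGFBP4 fell (−0.89). Over the whole list 15 of 38 genes were higher and 20 lower.

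Genes of mitosis and of replication parted. Of 33 genes of G2 and mitosis 20 were higher and 3 lower (median 0.23), with PTTG1, securin (0.90), and the kinetochore genes NDC80 (0.73) and NUF2 (0.64) higher. Of 39 replication genes 23 were lower and 9 higher (median −0.19). CCNE1, cyclin E1, fell from 11.7, 11.9 and 12 to 7.25, 5.81 and 8.44 CPM. CDC6, which loads the replicative helicase, fell from 102, 106 and 105 to 76.7, 64.7 and 86.7 CPM, while CDT1, its partner, rose (0.72). No member of either list changed by 2-fold.

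Of the death receptors, FAS fell and TNFRSF10B, a receptor of TRAIL, rose (0.69). Of 14 BCL2 family genes 7 were higher and 3 lower. The BH3-only genes PMAIP1, NOXA, at 8.15, 8.39 and 8.51 CPM in A4573 parental and 19.2, 25.2 and 16.4 CPM in A4573-R, and BBC3, PUMA (0.76), rose, and BMF fell from 34.7, 36.4 and 36.6 to 20.3, 20 and 20.4 CPM. The anti-apoptotic genes BCL2L1 and MCL1 did not pass (adjusted p = 0.43 and 0.082), though MCL1 was lower by TMM scaling (log2 fold change −0.13).

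Of 34 genes of cholesterol and fatty acid synthesis 23 were higher and 3 lower (median 0.31), among them TM7SF2, a sterol reductase (1.46), ACSS2, which makes acetyl-CoA (0.92), and EBP, a sterol isomerase (0.89). Glycolysis and hypoxia genes had 18 of 36 higher and 9 lower. ALDOC, the brain aldolase, was at 3.24, 3.07 and 3.11 CPM in A4573 parental and 26.2, 19.3 and 19.2 CPM in A4573-R. BNIP3, a hypoxia target that acts in mitophagy, was at 32.6, 33.2 and 34.1 CPM in A4573 parental and 91.6, 68.1 and 71.6 CPM in A4573-R. Both rose and were highest in A4573-R replicate 1. PKM, pyruvate kinase, fell from 964, 983 and 975 to 613, 566 and 644 CPM, and CA12, carbonic anhydrase 12, fell (−1.28). Nuclear oxidative phosphorylation genes had 18 of 29 higher and 4 lower (median 0.19). Of 13 mitochondrially encoded genes 6 were lower and 0 higher, MT-ND1 most (−0.64), but only 2 when A4573 parental replicate 1 or 2 was left out and 3 when A4573-R replicate 1 or 2 was.

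Interferon-response genes went both ways, 9 of 26 each, where 38.9% of all tested genes were higher and 35.4% lower. The DNA sensor IFI16 rose from 9.81, 9.78 and 10.2 to 35.6, 40.5 and 37.3 CPM. IFIH1, a sensor of double-stranded RNA, rose from 2.02, 2.28 and 2.1 to 7.54, 8.35 and 7.38 CPM. MB21D1, the sensor cGAS, rose (0.86). IFITM3, which blocks virus entry, fell from 56.8, 57.5 and 56.5 to 23.2, 22.1 and 23.2 CPM. Its relative IFITM2 fell from 3.47, 3.58 and 3.59 to 0.535, 0.487 and 0.465 CPM. Blood cells express many of these genes. The 9 blood cell markers summed to 0.349 to 0.446 CPM in A4573 parental and 0.969 to 1.44 CPM in A4573-R, with ITGAM going from a mean of 0.0404 to 0.583 CPM and PTPRC from 0.0501 to 0.258 CPM, and CD3D and MS4A1 at 0. Their part in the interferon genes was not tested. Of 27 ABC transporters and drug enzymes 14 were higher and 5 lower, with CYP2S1 highest (1.14) and ABCB10 lowest (−0.66). With any 1 A4573-R library left out, 25 were tested, of which 9 to 13 were higher and 5 lower. NRF2 targets had 14 of 27 higher and 8 lower, and FTL, ferritin light chain, rose from 372, 374 and 372 to 694, 744 and 750 CPM, whereas KEAP1, the inhibitor of NRF2, fell (−0.51). Lysosome and autophagy genes had 17 of 34 higher and 12 lower, with MAP1LC3B, an autophagosome protein, higher (0.69) and CTSK, cathepsin K, lower (−1.09). Of 20 imprinted genes 7 were higher and 8 lower, and next to PEG10 the gene SGCE fell (−1.13), while PEG3 rose (0.76).

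**Figure D5:**
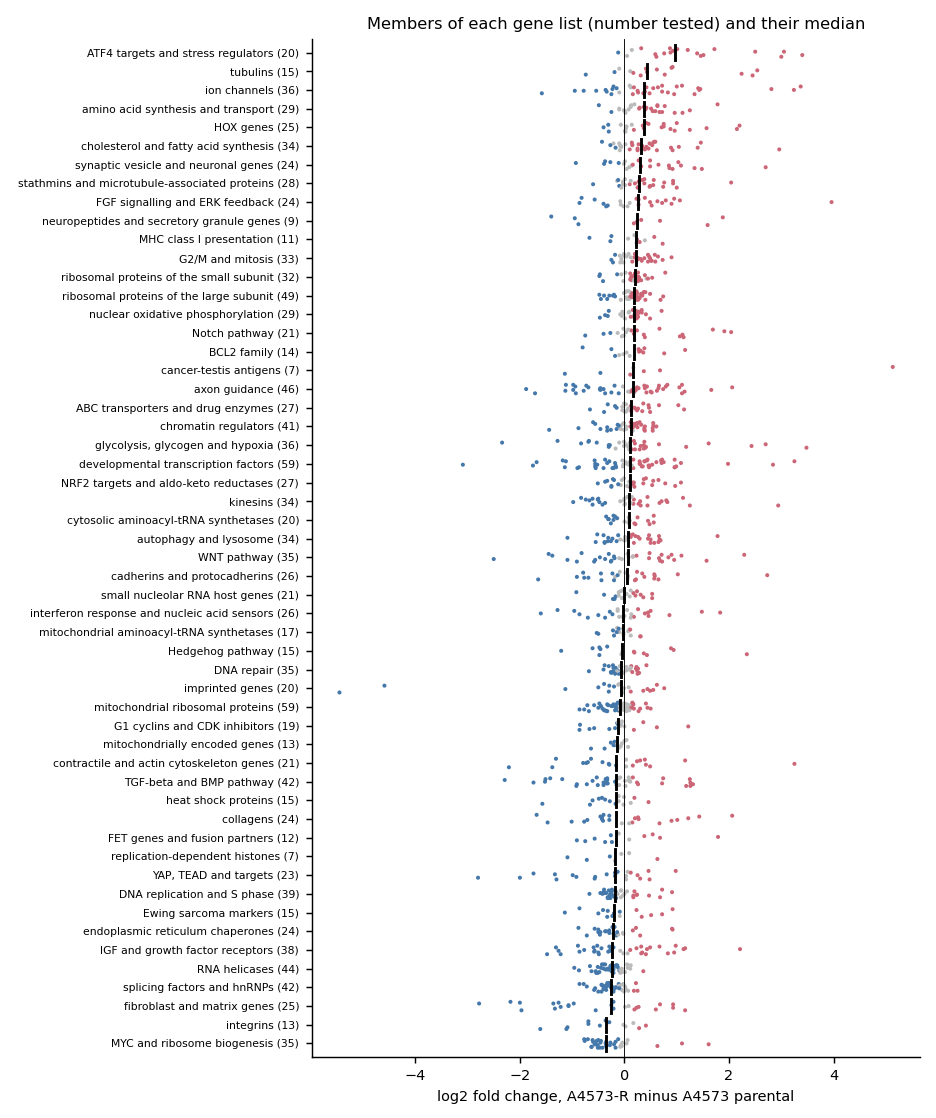
Log2 fold change (x axis) of the tested members of gene lists with 7 or more tested members (y axis, number tested in brackets). The list of p53 targets is not drawn. Points are red for higher, blue for lower and grey for genes that did not pass, and black bars are medians. ATF4 targets stand at the top with a median of 0.97 and the ribosome biogenesis list and integrins at the bottom, both with −0.36, and nearly every list holds genes on both sides.

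In the fit of all 12 libraries the change of A4573-R differed from that of TC-71-R for 11197 of 14335 genes (78.1%), and in 5758 (40.2%) the A4573 change was the higher one. Genes changed by 2-fold or more in A4573-R were picked for that change, which is itself part of the difference. How many of their differences passed is therefore partly fixed by the choice. Of the 498 genes higher by 2-fold or more in A4573-R, 194 were higher and 193 lower in TC-71-R, and the difference passed for 484. Of the 320 lower ones, 89 were higher and 144 lower there, and the difference passed for 300. Stress genes are examples: DDIT3 had a log2 fold change of 1.46 in A4573-R and −1.93 in TC-71-R, CEBPG 0.59 and −2.47, and GOT1 0.72 and −2.46, with adjusted p of the difference of 4.2e-08, 3.7e-11 and 6.4e-13. In the stress list the difference passed for 20 of 20 tested genes, each with the higher change in A4573-R. Genes of G2 and mitosis had the opposite difference in 33 of 33, with a median change of 0.23 in A4573-R and 1.44 in TC-71-R. GPNMB (−2.25 and 1.71), ATOH8, a bHLH factor (−1.84 and 2.57), and PDGFD (−1.31 and 2.06) fell in A4573-R and rose in TC-71-R. KIF5C (2.94 and −2.54) and LAMP3, a lysosomal membrane protein (1.78 and −4.21), did the reverse. The difference did not pass for COL24A1 (−2.24 and −2.06, difference −0.18, adjusted p = 0.25) or HSPA5 (−0.72 and −0.73, difference 0.01, adjusted p = 0.97). IGSF21 (2.93 and 2.69) and UNC5B (−1.71 and −1.45) changed in the same direction in both, with differences of 0.25 and −0.26 that passed.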

How the data were processed

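Total RNA of 3 A4573 parental and 3 A4573-R libraries, and of 3 TC-71 parental and 3 TC-71-R libraries for the comparison between lines, was measured by RNA sequencing. The deposited values are a per-gene signal in one file per library, called CPM here: reads per 1000000 of a library size that includes 5 entries with no name and carries a scaling factor (0.894 to 1.06 in the A4573 libraries). Trimmomatic, STAR 2.4, HTSeq, edgeR and the build GRCh38 are named, per the submitters' processing notes; annotation release, strand setting and the order of steps are not given in the sources used here. Every value was a whole number of reads times one step per library, within 0.001 (100% of values).

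Of 58293 entries, the 5 without a name were left out (30.6% to 42% of reads) and 1932 entries that share a symbol were summed, giving 56609 symbols. Genes with at least 1 CPM in 3 of the 6 libraries were tested on log2(CPM + 1) with limma 3.58.1 in R 4.3.3, with Benjamini-Hochberg adjustment over all tested genes and a threshold of 0.05. The change in A4573-R minus that in TC-71-R was tested in a limma fit of all 12 libraries. An exact permutation test of 3 against 3 cannot go below p = 0.1, so none is given. Precision is limited by the 45.1 to 55.8 M named reads and by the 3 libraries per group. The scripts were tested on simulated data.

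Members and lists were chosen with earlier results of these data known. The 60 lists hold 1840 entries for 1795 genes, of which 1813 entries matched by symbol, 18 by an older symbol of the same gene ID and 9 not at all. Genes could be named if they belong to the fusion or its partner DHX9, are among the 25 strongest changes per direction whose groups do not overlap and whose higher group averages 5 CPM or more, among the 15 largest rises or falls in CPM, among the 10 that vary most between A4573-R libraries, among up to 6 strongest members per direction of a list (all members of lists with 20 or fewer tested), went between less than 0.1 and at least 1 CPM, are among the 5 per direction that differ most from TC-71-R, or lie within 1000000 bases of one of the strongest changes. Alternatives were a pseudocount of 0.25, no filter, a mean of at least 5 CPM, scaling by named reads, TMM or median of ratios, edgeR 4.0.16 and DESeq2 1.42.0 on the recovered reads (9843 and 9475 genes passed), all 12 libraries, library weights, a replicate block and leaving out each library.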

Additional observations from a re-analysis of the deposited data

Results flagged for a closer look

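The change in A4573-R differed from the change in TC-71-R for 11197 of the 14335 genes tested in the fit of all 12 libraries, by limma's test of the difference itself. The genes named here differed most, as log2 fold change in A4573-R minus that in TC-71-R. The change was higher in A4573-R for P2RX7, an ATP-gated ion channel (6.13), CHAC1 (6.07), LAMP3 (5.99), HOXB9 (5.92) and KIF5C (5.48). It was lower in A4573-R for PEG10, an imprinted gene of retrotransposon origin (−6.95), RAP1GAP2, an inhibitor of the GTPase RAP1 (−6.82), MEST (−4.61), ATOH8 (−4.41) and EPAS1 (−4.30).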

How the results depend on the processing

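Among the 258 log2 fold changes of named genes, none that passed in the main fit or in an alternative turned its direction between them. A gene that passed in neither, or had no adjusted p in an alternative, was not judged. The 10 differences from TC-71-R named above kept direction and call under each alternative in which the gene was tested. The count of genes passed was 9708, and 8694 to 9329 without one library. The 818 genes changed by 2-fold or more became 1384 with edgeR, 1380 with DESeq2 and 504 with a mean of at least 5 CPM, and 673 to 770 without one library. Their balance of 498 higher to 320 lower depends on the filter. Without any 1 A4573-R library it was 358 to 376 higher and 315 to 334 lower. For the difference from TC-71-R, 11197 became 10694 to 11076 without one library. Of the genes named, ID3 lost its call most widely, with adjusted p of 0.05 to 0.36 in the 10 alternatives that lost it, among them edgeR (0.12) and DESeq2 (0.36); the causes were not tested. Higher genes were 52.3% of those passed, and 47.9% with TMM scaling.

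The replicate numbers did not pair the libraries: deviations of same-numbered A4573 parental and A4573-R libraries correlated at −0.062, 0.016 and −0.012 across genes. With the replicate number as a block, 9509 genes passed, 818 by 2-fold or more, and the difference from TC-71-R passed for 11236.

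Depth limits genes near 1 CPM; lower ones were tested only without the filter. Reads were counted per gene, so fusion, splice form and strand cannot be read. DNA copy number, protein and drug response were not measured.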
